A study of Cavia porcellus with 44 samples.

Results

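MMP12, CCL7, KRT23 and PPP1R36 are 4 of the 11967 gene symbols counted in the liver of 44 female Hartley guinea pigs, of which 7750 symbols were tested. The 4 genes were chosen from measured values: they were near absent in animals that had eaten low fat feed all their time on diet and present in animals on high fat feed. Ranked by fitted fold change between those 2 groups, among symbols with a mean of at least 1 CPM (the read count of a gene scaled to the size of its library) and no overlap between the groups, they hold the first 4 places, a rank that for CCL7 and PPP1R36 depends on the fit, since both had 0 counts in the low fat group. The study asked whether a change of feed, with or without enough vitamin C (vitC), reverses a diet-induced fatty and inflamed liver.

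All animals were sampled at week 32. LFH animals (n = 8) ate low fat feed with high vitC throughout, and HFH animals (n = 8) ate high fat feed with high vitC throughout. The other groups started with 16 weeks of high fat feed low in vitC (HFL), followed by 16 weeks of the same feed (HFL/HFL, n = 10), of high fat feed with high vitC (HFL/HFH, n = 6), of low fat feed with low vitC (HFL/LFL, n = 6) or of low fat feed with high vitC (HFL/LFH, n = 6). Per the paper, the high fat feeds also held added cholesterol and sucrose, which the low fat feeds lacked. Low fat groups were pair-fed to match vitC intake: LFH to HFH, HFL/LFH to HFL/HFH and HFL/LFL to HFL/HFL. Fat, cholesterol, sucrose and the way of feeding therefore cannot be told apart here. The labels give the disease state of the LFH livers as healthy, that of the livers of all high fat groups as NASH (steatohepatitis) and that of the livers after the switch to low fat as NAFLD. No liver from the time of the switch was analysed here, so a lower level after the switch is lower than in animals kept on high fat feed, not lower than in the same animal before. Whole liver was sequenced, and fewer cells of a type cannot be told apart from less RNA per cell. The hepatocyte gene ALB, encoding serum albumin, had group means from 31600 to 117000 CPM, as in liver tissue.

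The 4 genes belong to different families. Symbols are those of human orthologues. RefSeq's gene table of another guinea pig assembly lists MMP12, KRT23 and PPP1R36 by symbol but no CCL7. The name Mcp-3, once used for CCL7, stands there as a synonym of 1 gene, but that gene has the symbol Mcpt3. The shared synonym therefore does not identify it as CCL7, and which guinea pig gene the counts under CCL7 come from is not settled. MMP12 encodes macrophage elastase, a secreted metalloproteinase that macrophages use to cut elastin and other matrix proteins. The human gene CCL7 encodes a CC chemokine that draws monocytes and other leukocytes through CC receptors, among them CCR1. KRT23 encodes an acidic (type I) keratin of epithelial cells, low in normal liver and known from stressed hepatocytes and from the reaction of bile ductules to injury. PPP1R36 encodes a regulatory subunit of protein phosphatase 1 that has mostly been described in testis. In fatty livers, macrophages filled with lipid gather and express a known set of genes, including TREM2, FABP5 and LGALS3. VitC is an essential nutrient of this species.

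Each library held 21133807 to 35427724 counts (median 25652393). CPM was computed on library sizes adjusted by TMM normalization, on which 3 counts, taken here as the floor of detection, were worth 0.0626 to 0.17 CPM. Floors and low counts cover counting error only. None of the 146 pairs of animals within a group agreed within sampling noise, and no other symbol shared the counts of any of the 4 genes.

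The lifelong low fat livers held almost no RNA of the 4 genes. MMP12 had 0 counts in 6 of 8 LFH animals, and the others had 3 and 4 counts. KRT23 likewise had 0 counts in 6 of 8, with 2 and 6 counts in the rest. CCL7 and PPP1R36 had 0 counts in all 8 LFH animals. Of the 2 symbols ranked next, TREM2, a lipid-sensing receptor of macrophages, reached 14 counts in an LFH animal, and SLC34A2, a phosphate transporter, reached 4 counts. Fitted log2 fold changes of LFH against HFH were -10.39 for MMP12, -9.55 for KRT23, -8.22 for TREM2 and -7.51 for SLC34A2. For CCL7 and PPP1R36 the size of the fitted value is set by the fit, and against the floor of 3 counts per library their HFH means were at least 30.6-fold and 30.8-fold higher, so that their place relative to TREM2 and SLC34A2 is not settled by the counts. These differences chose the genes and received no test. In 8.84% of the symbols tested, all LFH animals were below all HFH animals.

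In the HFH livers, MMP12 had its lowest value at 13.6, its median at 76.7 and its highest at 102 CPM, a mean of 63.5 ± 33.9 (SD, n = 8). The HFL/HFL livers ranged from 35.5 over a median of 64.3 to 86.7 CPM, with a mean of 63.4 ± 18.2 (SD, n = 10), and the HFL/HFH livers from 14.7 over a median of 60.0 to 183 CPM, with a mean of 81.8 ± 62.8 (SD, n = 6). The 3 high fat groups thus overlapped widely, and the spread was widest in HFL/HFH, where the highest animal had 12.5 times the level of the lowest. After the switch to low fat feed, the macrophage elastase gene was still read in all but 1 animal. HFL/LFL livers had 1.34, 3.76 and 6.42 CPM as lowest, median and highest value, a mean of 3.95 ± 2.11 (SD, n = 6), against 0, 0.89 and 3.31 CPM and a mean of 1.34 ± 1.36 (SD, n = 6) in HFL/LFH. Every switched animal was below every high fat animal, and the order of the means was HFL/HFH, HFH, HFL/HFL, HFL/LFL, HFL/LFH and LFH, where the first 3 did not differ beyond their spread.

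CCL7 was a gene of low counts also on high fat feed. Its lowest, median and highest values were 1.06, 4.49 and 9.07 CPM in HFH, with a mean of 4.48 ± 2.40 (SD, n = 8). In HFL/HFL they were 3.96, 6.18 and 13.8 CPM, with a mean of 6.82 ± 3.06 (SD, n = 10), and in HFL/HFH 2.29, 4.57 and 14.2 CPM, with a mean of 5.85 ± 4.21 (SD, n = 6). The switched livers were close to the empty LFH livers: in HFL/LFL, 3 animals had 0 counts and the others 2, 2 and 4 counts, and in HFL/LFH, 5 animals had 0 counts and animal 58 had 8. The low vitC group had a mean of 0.0599 ± 0.0712 CPM and the high vitC group one of 0.0603 ± 0.148 CPM (SD, n = 6 each), below what 3 counts are worth. The order of the means was HFL/HFL, HFL/HFH, HFH and then the 3 low fat groups, and no neighbours within either feed differed beyond their spread.

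KRT23 had a coefficient of variation of 27.7% in HFH, 32.7% in HFL/HFL and 35.5% in HFL/HFH, where that of MMP12 was 53.4%, 28.7% and 76.7%. The HFH livers ran from 20 over a median of 39.3 to 54.2 CPM, with a mean of 40.2 ± 11.1 (SD, n = 8), the HFL/HFL livers from 29 over 42.9 to 76.7 CPM, with a mean of 47.1 ± 15.4 (SD, n = 10), and the HFL/HFH livers from 29.7 over 50.4 to 69.6 CPM, with a mean of 49.3 ± 17.5 (SD, n = 6). The 3 groups overlapped. After the switch, the keratin was above the floor of 3 counts in 11 of 12 animals. HFL/LFL livers had 2.96, 8.74 and 13.6 CPM as lowest, median and highest value (mean 8.56 ± 4.62, SD, n = 6), and HFL/LFH livers 0, 2.23 and 5.17 CPM (mean 2.22 ± 1.71, SD, n = 6). In the order of the means (HFL/HFH, HFL/HFL, HFH, HFL/LFL, HFL/LFH, LFH), the first 3 did not differ beyond their spread.

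PPP1R36 was highest in HFH, with 2.5, 3.81 and 9.35 CPM as lowest, median and highest value and a mean of 4.51 ± 2.20 (SD, n = 8). The HFL/HFL livers had 1.49, 2.92 and 5.73 CPM (mean 3.05 ± 1.41, SD, n = 10) and the HFL/HFH livers 1.6, 3.56 and 5.46 CPM (mean 3.67 ± 1.35, SD, n = 6). These groups overlapped too. In the switched livers the phosphatase subunit gene was low and uneven, with 0, 0.392 and 0.934 CPM in HFL/LFL (mean 0.411 ± 0.339, SD, n = 6) and 0, 0.458 and 1.37 CPM in HFL/LFH (mean 0.53 ± 0.514, SD, n = 6). The highest switched animal, HFL/LFH animal 43, came close to the lowest high fat animal, at 1.49 CPM. The order of the means was HFH, HFL/HFH, HFL/HFL, HFL/LFH, HFL/LFL and LFH, and neither the high fat groups nor the 2 switched groups differed beyond their spread.

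**Figure D1:**
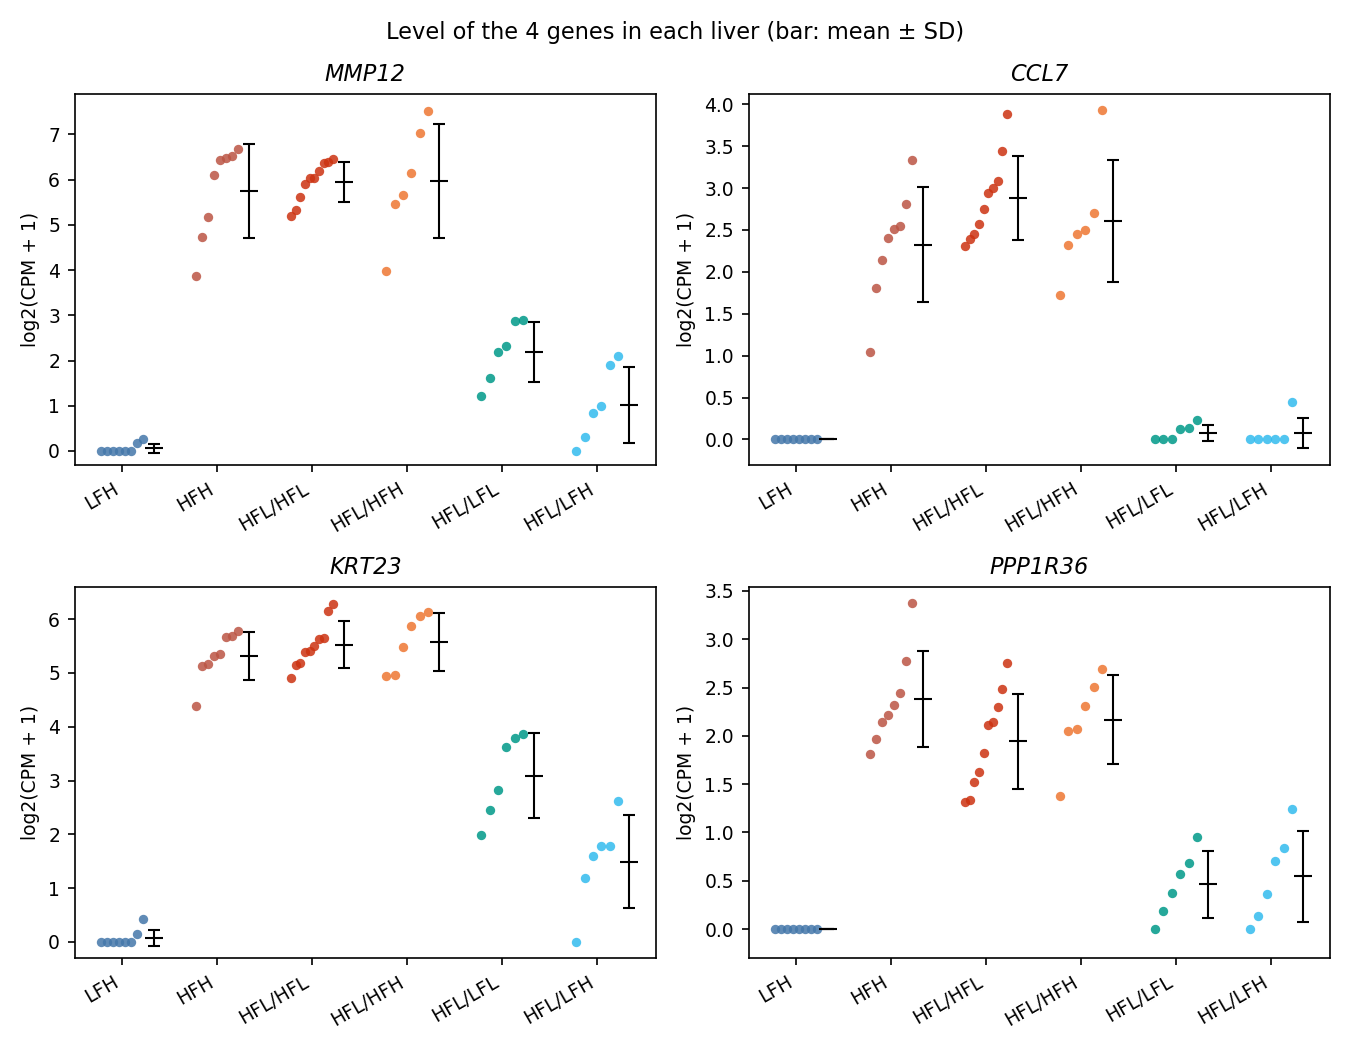
Level of MMP12, CCL7, KRT23 and PPP1R36 in each of the 44 livers, as log2(CPM + 1) on the vertical axis, by diet group on the horizontal axis; each point is 1 animal, sorted by level within its group, and the bar beside it gives the mean and SD of the group on that scale. For all 4 genes the 20 animals on low fat feed lie below the 24 animals on high fat feed, and the LFH animals lie at or near 0.

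Across feeds, the 20 animals that ended on low fat feed and the 24 that ended on high fat feed did not overlap in any of the 4 genes. The highest low fat and the lowest high fat values were 6.42 and 13.6 CPM for MMP12, 0.362 and 1.06 CPM for CCL7, 13.6 and 20 CPM for KRT23, and 1.37 and 1.49 CPM for PPP1R36. Among all symbols tested, 2.66% had every low fat animal below every high fat animal. The LFH and HFH animals of this count are those on which the genes were chosen, so the count itself is a description.

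The switch of feed at low vitC compares HFL/LFL with HFL/HFL. The rule for the genes used their presence on high fat feed and their absence in LFH, not the levels of the switched animals, and the genes were picked with earlier results of these data known. The high fat side of each switch was thus among the values the rule used, and the p-values make no allowance for this. CCL7 and PPP1R36 had 8 and 56 counts over the HFL/LFL animals and passed the filter of 200 total counts only through the high fat animals, so a lower level was built in for them and their values are a description. MMP12 and KRT23 reached 200 counts in the low fat animals alone, with 552 and 1186 counts over the HFL/LFL animals. Tests are edgeR's quasi-likelihood test with Benjamini-Hochberg adjustment over the symbols tested. MMP12 fell by 4.00 on the log2 scale (SE 0.53, adjusted p = 1.29e-07), to 6.23% of the mean on continued high fat feed. CCL7 had a fitted log2 fold change of -6.74 (SE 0.74), to 0.879%, a value that rests on 8 counts in the 6 switched animals together. The keratin KRT23 fell by 2.46 (SE 0.40, adjusted p = 5.3e-06), to 18.2%, and PPP1R36 had a fitted log2 fold change of -2.88 (SE 0.57), to 13.5%. An exact two-sided permutation test of log2(CPM + 1) gave p = 0.00025 for MMP12 and for KRT23, the smallest that 6 against 10 animals allow. In the same fit 37.8% of all symbols passed the threshold, 19.7% with a lower level, and in 6.0% all switched animals were below all HFL/HFL animals. A fall in itself was therefore common.

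The switch at high vitC compares HFL/LFH with HFL/HFH. The same limits hold. The HFL/HFH animals were among the high fat values that the rule used. CCL7 and PPP1R36 had 8 and 70 counts over the HFL/LFH animals, against 166 for MMP12 and 283 for KRT23. MMP12 fell by 5.94 on the log2 scale (SE 0.62, adjusted p = 4.81e-10, edgeR), to 1.64% of the HFL/HFH mean. KRT23 fell by 4.46 (SE 0.47, adjusted p = 6.56e-10), to 4.51%. CCL7 had a fitted log2 fold change of -6.44 (SE 0.75), to 1.03%, where all 8 counts of the switched group came from animal 58. PPP1R36 had one of -2.76 (SE 0.59), to 14.5%. The exact two-sided permutation p was 0.00216 for MMP12 and for KRT23, the smallest possible for 6 against 6 animals. Of all symbols, 35.9% passed the threshold in this comparison, 19.4% with a lower level, and 9.88% were lower without overlap. MMP12 and KRT23 kept their direction and their call in both switches under every alternative run and with any single animal left out.

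**Figure D2:**
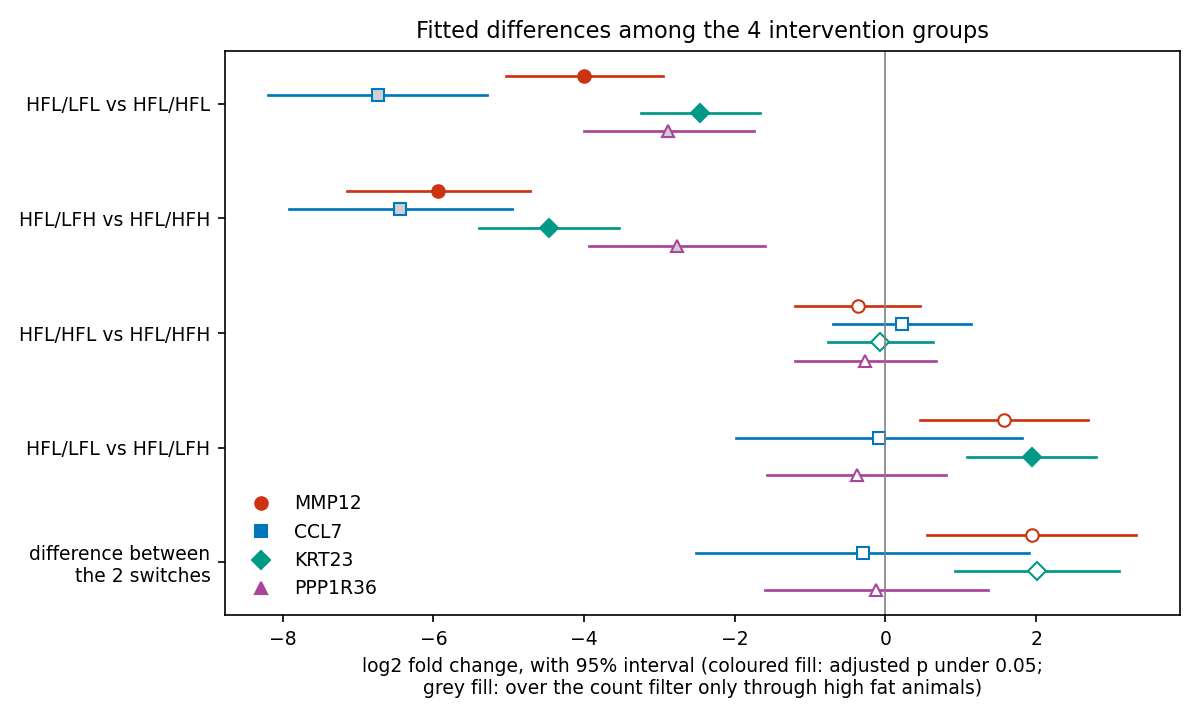
Fitted log2 fold changes (horizontal axis) of MMP12, CCL7, KRT23 and PPP1R36 in the 4 pairwise comparisons of the intervention groups and for the difference between the feed effects at low and high vitC (rows); lines are 95% intervals, symbols filled in colour have an adjusted p under 0.05, and grey fill marks CCL7 and PPP1R36 in the switches, where the count filter built in a lower level. MMP12 and KRT23 are filled in colour and below 0 in both switches; of the vitC comparisons, KRT23 in HFL/LFL against HFL/LFH is filled, at 1.94.

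The level of vitC after the switch was compared between HFL/LFL and HFL/LFH. KRT23 passed the threshold, with a higher level at low vitC, while MMP12 had a higher mean that did not pass, and the means of CCL7 and PPP1R36 differed by less than the spread between animals. KRT23 was 3.85 times as high in the mean (log2 fold change 1.94, SE 0.44, 95% interval 1.08 to 2.8, adjusted p = 0.0378 by edgeR, and exact permutation p = 0.00649). Of the 6 HFL/LFL animals, 4 were above all HFL/LFH animals in KRT23, and the lowest HFL/LFL animals, at 2.96 and 4.46 CPM, lay below the highest HFL/LFH animal at 5.17 CPM. In this comparison 0.219% of the symbols (17 of 7750) passed, 0.155% with a higher level in HFL/LFL. The call for KRT23 was not firm: the adjusted p was 0.377 when the spread was taken from these 2 groups alone and 0.0994 with limma voom and quality weights, and the call was lost without any one of HFL/LFL animals 13, 44, 49 and 68 or HFL/LFH animals 3, 4, 32 and 58 (adjusted p 0.00856 to 0.157 over the 12 fits with an animal left out). The fitted difference stayed between 1.68 and 2.4 in those fits.

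MMP12 was 2.94 times as high in HFL/LFL as in HFL/LFH (log2 fold change 1.57, SE 0.57, 95% interval 0.46 to 2.69, adjusted p = 0.236 by edgeR). Before adjustment over the symbols its p was 0.00849, and the exact permutation p, which is not adjusted over genes, was 0.0281. As with the keratin, 4 of the 6 HFL/LFL animals lay above all HFL/LFH animals. CCL7 was at or under the floor in most animals of both groups, which leaves its interval wide (log2 fold change -0.08, 95% interval -1.98 to 1.81, adjusted p = 0.989), so no difference was detectable at this depth. The value went to 3.74 without HFL/LFH animal 58 and to 0.20 with voom. PPP1R36 had a log2 fold change of -0.38 (95% interval -1.57 to 0.8, adjusted p = 0.902), an interval that holds both no difference and a level lower by more than 1 log2 unit in HFL/LFL. It turned to 0.28 with voom and ran from -0.82 to 0.16 with single animals left out, so its direction is not settled.

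On continued high fat feed, HFL/HFL and HFL/HFH differed by less than the spread between animals in each of the 4 genes. The log2 fold changes were -0.37 for MMP12 (95% interval -1.2 to 0.46), 0.22 for CCL7 (-0.7 to 1.14), -0.07 for KRT23 (-0.76 to 0.63) and -0.27 for PPP1R36 (-1.2 to 0.67), each with an adjusted p of 1.0 by edgeR. In all, 1 of the 7750 symbols (0.0129%) passed in this comparison.

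Whether the effect of the feed itself differed with vitC was tested as the difference between the 2 switches. For KRT23, which kept 18.2% of its high fat level at low vitC and 4.51% at high vitC, this difference was 2.01 on the log2 scale (SE 0.56, 95% interval 0.92 to 3.1, p = 0.00082 and adjusted p = 0.245 by edgeR). For MMP12, with 6.23% and 1.64%, it was 1.94 (SE 0.71, 95% interval 0.55 to 3.33, p = 0.00886 and adjusted p = 0.444). Neither passed, and none of the 7750 symbols did in this test, although 638 had an unadjusted p under 0.05 and DESeq2 passed 3. For CCL7 and PPP1R36, whose lower level after both switches was built in, the difference is given as a description, at -0.30 (SE 1.13) and -0.12 (SE 0.76). That of CCL7 ran from -0.95 to 3.52 when single animals were left out, with 3.52 without HFL/LFH animal 58, and limma voom gave 0.03 for CCL7 and 0.49 for PPP1R36, so neither direction is settled.

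**Figure D3:**
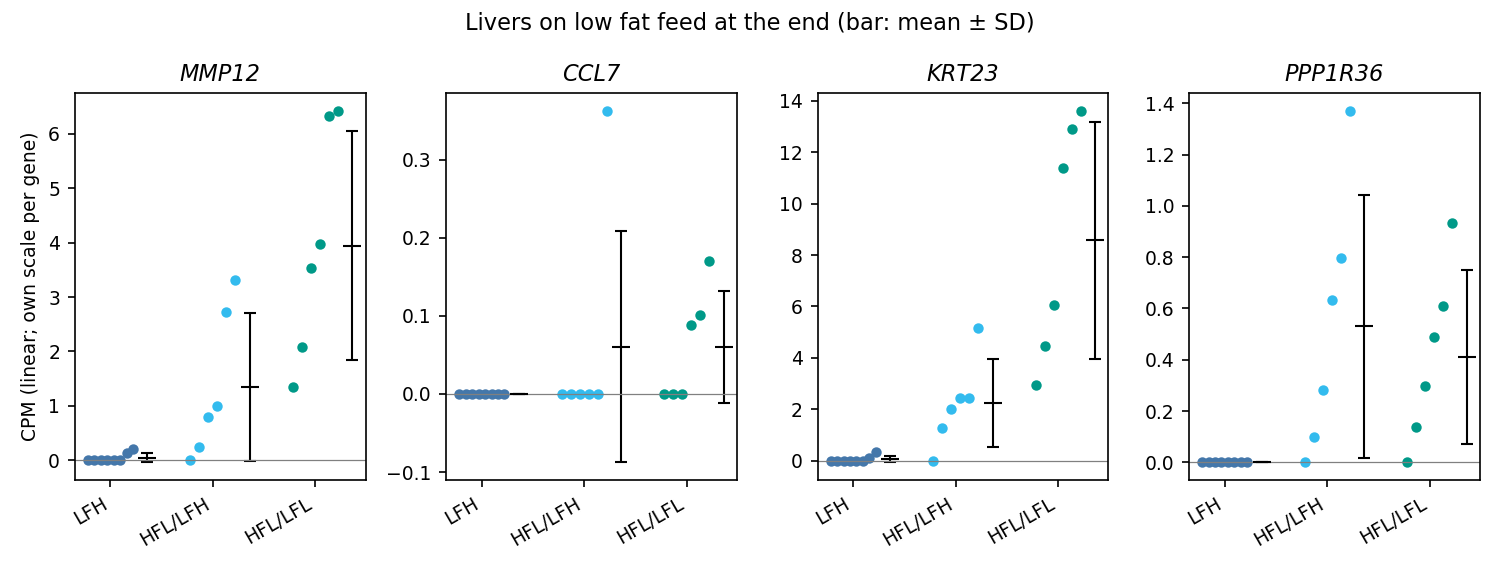
CPM (vertical axis, linear, with a scale of its own for each gene) of MMP12, CCL7, KRT23 and PPP1R36 in the livers of the 3 groups that ended on low fat feed (horizontal axis); each point is 1 animal and the bar gives mean ± SD. In MMP12 and KRT23 all 6 HFL/LFL animals stand above all 8 LFH animals, whereas CCL7 is at 0 in most switched animals and PPP1R36 reaches similar levels in both switched groups.

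Against the lifelong low fat livers, a remainder was seen for 3 of the 4 genes, given here without a test because the LFH values chose the genes. All 6 HFL/LFL animals were above all 8 LFH animals in MMP12 and in KRT23, which was so for 0.49% of the symbols tested. In HFL/LFH, 5 of 6 animals were above all LFH animals in both genes, and animal 43 had 0 counts of both. PPP1R36, absent from LFH, was above the floor of 3 counts in 4 of 6 animals of each switched group. CCL7 was above it in HFL/LFL animal 13, with 4 counts, and in HFL/LFH animal 58. Within the switched groups MMP12 and KRT23 had the same animals on top, 49, 13 and 44 in HFL/LFL and 33, 32 and 58 in HFL/LFH. PPP1R36, at no more than 30 counts, did not follow them in HFL/LFH. HFL/LFH animal 33 was the highest of its group in both MMP12 and KRT23, with 75 and 117 counts. Animal 43 of the same group, at 0 counts in MMP12, CCL7 and KRT23, had the highest PPP1R36 of all switched animals, 30 counts or 1.37 CPM. HFL/LFL animal 53, the lowest of its group in KRT23, had 0 counts of PPP1R36.

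Other genes of the same families were examined in the same fit, from lists that do not include the 4 genes. The counts of these lists and of the cell type markers stand against the background of all symbols, of which 37.8% passed at low vitC (19.7% lower) and 35.9% at high vitC (19.4% lower). Among 10 tested metalloproteinases and TIMPs (their inhibitors), 3 fell and 1 rose at low vitC and 4 fell and 2 rose at high vitC, with a median log2 fold change of -0.54 in both, against -0.03 and -0.01 over all symbols. Over the 8 that reached 200 counts in the low fat animals alone, the medians were -0.31 and -0.45. MMP11, a metalloproteinase of stroma, fell from 37.4 ± 17.9 to 5.37 ± 2.24 CPM in the first (log2 fold change -2.80, adjusted p = 2.9e-05) and from 39.7 ± 17.1 to 5.29 ± 2.25 CPM in the second (-2.91, adjusted p = 3.2e-05). MMP13, a collagenase, had 0 counts in all switched animals and a mean of 0.295 ± 0.217 CPM in HFL/HFL and 0.65 ± 0.339 CPM in HFL/HFH, so its lower level in the switched animals was set by the filter on total counts, which it passed only through the high fat animals; it stands among the fallers counted here. TIMP2 fell in both (log2 fold change -0.59 and -0.97), MMP25, a membrane-bound metalloproteinase of leukocytes, fell at high vitC (-1.60), TIMP3 rose in both (1.13 and 0.56) and MMP24 rose at high vitC (2.96). MMP25 was the only metalloproteinase of the list that passed between the switched groups, at 3.56 ± 2.65 CPM with low vitC and 0.848 ± 0.407 CPM with high vitC (log2 fold change 2.06, adjusted p = 0.0237), but no symbol passed when only these 2 groups were fitted.

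The gene of elastin, the best known substrate of MMP12, was not analysed here. Of 11 tested genes of elastic fibres, 7 fell and 1 rose at low vitC, and 9 fell and 1 rose at high vitC (median log2 fold change -0.80 and -0.98). LTBP2, a matrix protein that binds fibrillin fibres, fell in both (log2 fold change -2.18 and -2.51), as did LOXL1, an enzyme that crosslinks elastin (-2.02 and -1.92). MFAP2, a microfibril glycoprotein, fell in both (-1.24 and -0.98), and FBLN5, which helps assemble elastin, fell by 1.43 at high vitC. FBN1, encoding fibrillin, rose by 0.87 and 1.37. No gene of this list passed between HFL/LFL and HFL/LFH.

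The list of other CC chemokine ligands held 15 tested symbols but 11 distinct sets of counts, since CCL3, CCL18 and CCL3L1 shared all counts, as did CCL15 with CCL23 and CCL4 with CCL4L2. Of the 11, 7 fell and none rose at low vitC, and 8 fell and none rose at high vitC (median log2 fold change -2.06 and -3.0). CCL2, the main attractant of monocytes, fell from 28.7 ± 8.29 to 1.41 ± 1.02 CPM (log2 fold change -4.35, adjusted p = 3.3e-10) and from 51.3 ± 24.5 to 1.67 ± 1.12 CPM (-4.93, adjusted p = 3.6e-11). Unlike CCL7, it was still read in every switched animal, from 0.638 CPM upward. The counts shared by CCL3, CCL18 and CCL3L1 fell in both (log2 fold change -3.11 and -3.89). Of the fallers, CCL20 and CCL22 in both switches and CCL17 at high vitC had under 200 counts in all low fat animals together (128, 141 and 49) and passed the filter only through the high fat animals, so their lower level was built in. Of the 8 sets of counts that did not depend on the high fat animals, 5 fell in each switch, with medians of -1.64 and -2.16. CCL22 had log2 fold changes of -2.73 and -3.07, and CCL17 had a mean of 0.434 ± 0.393 CPM in HFL/HFH and 0.0327 ± 0.0801 CPM in HFL/LFH. Among 8 tested receptors, CCR1, a receptor of human CCL7, was the only one to pass, from 68.3 ± 16.0 to 34.9 ± 7.06 CPM at low vitC (log2 fold change -0.97, adjusted p = 0.0004) and from 55.5 ± 13.9 to 20.8 ± 4.5 CPM at high vitC (-1.42, adjusted p = 6.4e-06). No ligand or receptor of these lists passed between the switched groups.

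Of 8 tested keratins, 5 fell and none rose in each switch, with a median log2 fold change of -1.82 at low and -1.77 at high vitC. KRT80 fell from 9.17 ± 3.14 to 1.35 ± 0.703 CPM and from 13 ± 7.43 to 0.738 ± 0.479 CPM. KRT7, a keratin of bile duct cells, fell from 85 ± 40.1 to 21.2 ± 11.8 CPM and from 114 ± 39.0 to 16.5 ± 12.4 CPM. KRT4 is among the fallers, at no more than 22 counts in any of these animals, and it passed the filter only through the high fat animals. Both bile duct keratins were expressed in the LFH livers, KRT7 at 10.7 ± 7.7 and KRT19 at 226 ± 72.5 CPM (SD, n = 8), where KRT23 was near 0. Between HFL/LFL and HFL/LFH none of the 8 other keratins passed.

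Of 9 other protein phosphatase 1 subunits, 4 passed in each switch, near the share of all symbols. At low vitC 2 fell and 2 rose, and at high vitC 3 fell and 1 rose, with median log2 fold changes of 0.07 and -0.13. PPP1R14B, an inhibitor subunit, fell in both (log2 fold change -1.13 and -1.40), as did PPP1R13B (-0.56 and -0.66), while PPP1R21 fell by 0.31 at high vitC. PPP1R16B rose by 0.64 at low vitC, and PPP1R3E, which directs the phosphatase to glycogen, rose by 0.52 and 0.69.

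**Figure D4:**
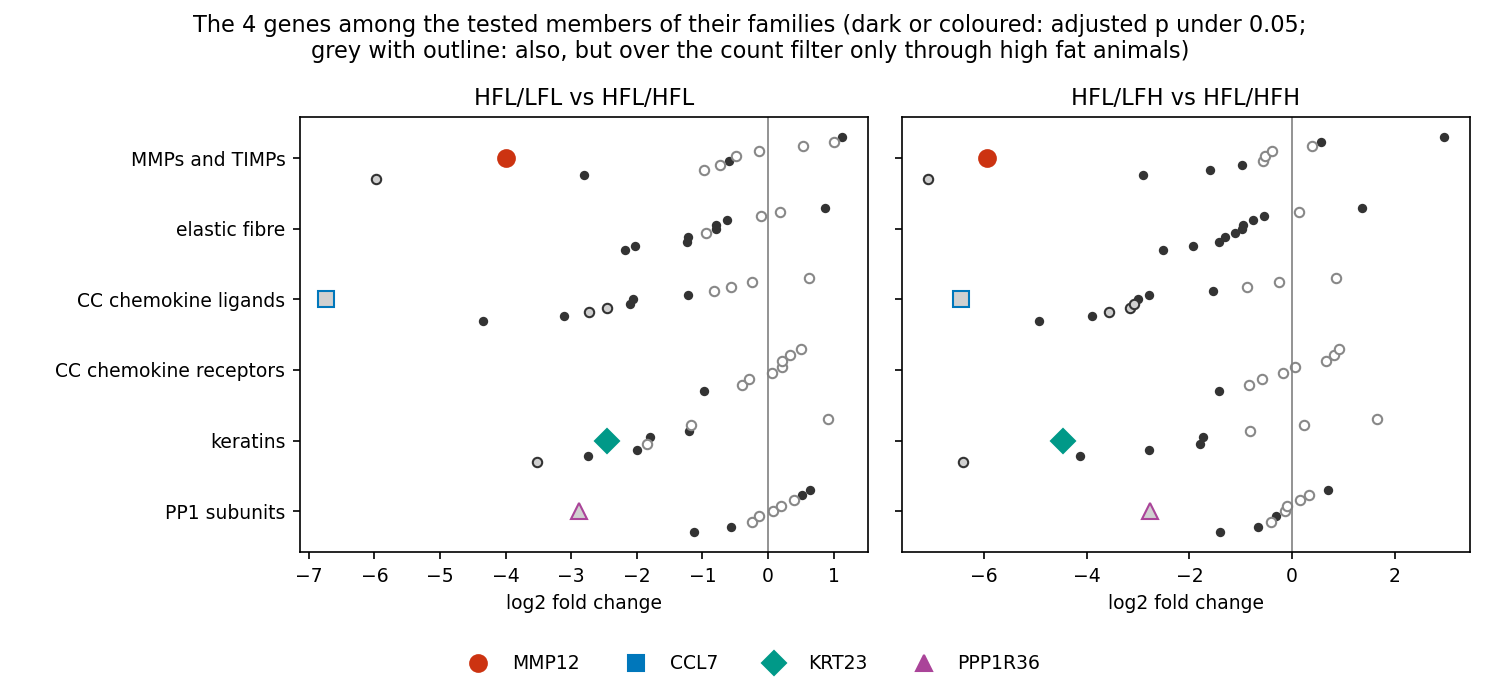
Log2 fold changes (horizontal axis) of the tested members of 6 gene lists (rows) in the 2 switches from high to low fat feed (panels), symbols with shared counts drawn once; dark circles have an adjusted p under 0.05, grey circles with a dark outline do too but passed the count filter only through the high fat animals, and the symbols with a coloured outline are MMP12, CCL7, KRT23 and PPP1R36 in the rows of their families. CCL7 and PPP1R36 lie to the left of the other members of their rows in both panels, whereas MMP13, and KRT4 and at low vitC KRT80, lie to the left of MMP12 and KRT23; MMP13 in both panels and KRT4 in the right panel compare with groups at 0 counts, so their size depends on the fit.

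Markers of several cell types moved with the 4 genes. Of 8 tested markers of lipid-associated macrophages, 7 fell in each switch (median log2 fold change -2.27 and -3.10). TREM2 fell from 91.3 ± 37.2 to 6.86 ± 3.98 CPM at low vitC and from 68.9 ± 20 to 4.01 ± 4.42 CPM at high vitC. Of 6 general macrophage markers, 4 and 5 fell and 1 (MRC1) rose, and their summed level ranged from 299 to 746 CPM in HFH, 493 to 886 in HFL/HFL, 373 to 677 in HFL/HFH, 343 to 597 in HFL/LFL, 261 to 427 in HFL/LFH and 311 to 535 in LFH. CD5L, a gene of resident Kupffer cells, rose in both switches (log2 fold change 2.52 and 2.04), the only one of 5 Kupffer cell markers to pass. Of 7 cholangiocyte markers, 6 fell in each switch, with EPCAM going from 144 ± 31.3 to 32.2 ± 19.6 CPM and from 175 ± 35 to 27.8 ± 14.1 CPM, and their summed level ranged from 1280 to 2690 CPM over the high fat groups and from 570 to 1230 CPM over the low fat groups. The hepatocyte marker ALB rose in both (log2 fold change 1.41 and 1.86), and 2 and 1 of 4 hepatocyte markers rose in all. Of the remaining lists, 3 of 6 stellate cell and fibroblast markers fell and 1 rose in each switch, 5 and 2 of 6 endothelial markers rose, and 1 and 3 of 6 neutrophil markers were called lower. The 1 at low vitC, MPO, with 0 counts in HFL/LFL, and 1 of the 3 at high vitC, CXCR2, passed the filter only through the high fat animals; S100A8 and S100A9 had log2 fold changes of 1.02 and 1.25 at low vitC and did not pass there. None of 8 T cell markers passed at low vitC, and 1 rose and 1 fell at high vitC, while 1 of 6 B cell and plasma cell markers rose in each. Of 3 tested male germ cell markers, 1 (SYCP3) fell in each switch, and none of 6 markers of ciliated cells passed. No listed marker of macrophages or cholangiocytes was at 0 in all animals of any group; CD68, CSF1R, GPNMB and TIMD4 were not analysed here. The part of these cell types in the changes of the 4 genes was not tested.

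Between HFL/LFL and HFL/LFH, where KRT23 passed, none of the listed cell type markers did. The fitted differences of most lists were positive, against a median of 0.0 over all symbols. All 6 macrophage markers had positive fitted differences (median 0.51 on the log2 scale), as had 7 of the 8 lipid-associated macrophage markers (median 0.93), among them CLEC7A (1.60, adjusted p = 0.082) and FABP5 (1.40, adjusted p = 0.065). The median of the summed macrophage markers was 499 CPM at low vitC and 337 CPM at high vitC. Of the 6 neutrophil markers, 5 had positive differences (median 1.32), among them the calprotectin genes S100A8 (3.18, adjusted p = 0.0552) and S100A9 (2.62, adjusted p = 0.152). MPO went the other way (-5.20, adjusted p = 0.291 by edgeR), with 0 counts over the HFL/LFL animals and 21 over the HFL/LFH animals. The summed medians of the neutrophil markers were 28.5 and 8.47 CPM, a sum of which CSF3R made up 71.0%. Positive differences were also seen in 6 of 6 endothelial markers (median 0.32), 5 of 6 stellate cell and fibroblast markers (median 0.60), 4 of 5 Kupffer cell markers (median 0.43) and 6 of 7 cholangiocyte markers (median 0.24). T cell markers had a median of 0.16 and ciliated cell markers one of 0.02. The medians of hepatocyte (-0.03), B cell and plasma cell (-0.04) and male germ cell markers (-0.24) were below 0. Cholangiocyte markers had summed medians of 827 and 838 CPM. What share these markers have in the level of KRT23 was not tested.

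The genes whose levels followed each of the 4 most closely over all 44 animals largely shared the split by feed. By Pearson's r of log2(CPM + 1), a description over animals that share feed and group, MMP12 was most like FABP5 (0.97), KRT23 (0.97), CLEC7A, PLXNA1 and SLC6A8 (0.96 each). KRT23 was most like SLC6A8, a creatine transporter, TREM2, FABP5 and LGALS3 (0.98 each) and MREG (0.97). CCL7 was most like SERPINB9.2 (0.95), PAK6, YWHAH.1, CHAC1 and INSC (0.93 each), and PPP1R36 was most like VAV3 (0.94), ARNT2, RCAN2, MMP11 and DDR1 (0.93 each). No gene stood in more than 2 of these 4 lists.

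Within the high fat groups, with each animal set against its group mean, the 4 genes parted. MMP12 and KRT23 kept an r of 0.70 over 24 animals (Spearman's rho 0.61), and 0.55 without the 2 animals farthest from the median of MMP12. MMP12 and CCL7 had an r of 0.37, which was -0.02 without the 2 farthest animals, HFH animal 6 and HFL/HFH animal 30, so that it rested on them. PPP1R36 ran against MMP12 (-0.43) and CCL7 (-0.46), and these values were -0.13 and -0.34 without the 2 animals farthest in MMP12 and in CCL7. HFH animal 6 shows the contrast: in CPM it had the lowest MMP12 (13.6), CCL7 (1.06) and KRT23 (20) of all 24 animals and the highest PPP1R36 (9.35). In raw counts it kept its place in CCL7 and PPP1R36. HFL/HFH animal 30 had fewer counts of MMP12 (352 against 651) and of KRT23 (720 against 961), so those places depend on the scaling to adjusted library size. The correlation of the 4 genes with the log2 total count of the library lay between -0.2 and 0.14. It does not cover the TMM adjustment of library size, whose part in these correlations was not tested.

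By this measure, the genes most like MMP12 were FABP5 (r = 0.94), the leukocyte gene DOCK2 (0.93), CYBB (0.92), which encodes a subunit of the phagocyte oxidase, EPRS1 (0.91) and LIPA (0.89), the lysosomal acid lipase. Those most like KRT23 were SLC6A8 (0.9), the leukocyte integrin gene ITGB2 (0.87), the myeloid receptor gene SIRPA (0.84), whose counts are shared by SIRPB1 and SIRPG, RNF121 and HCLS1 (0.83 each). None of the 5 was a keratin. CCL7 had weaker likenesses, from KLF4 (0.69), CDA and TLNRD1 (0.68 each) to SERPINB9.2 (0.67) and PTGER2 (0.66). PPP1R36 was most like DDR1, a collagen receptor gene (0.82), TC2N, LRRC73 and CTHRC1 (0.8 each), and MACIR (0.79).

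Summed markers of 12 cell types, compared with the 4 genes in the same 24 animals (48 pairs), showed the same parting. The macrophage sum had an r of 0.78 with MMP12 (rho 0.76, and 0.64 without the 2 farthest animals) and of 0.81 with KRT23 (rho 0.76, and 0.73 without them), but of 0.45 with CCL7 (0.28 without them) and -0.46 with PPP1R36 (-0.21 without them). The cholangiocyte sum had an r of 0.74 with PPP1R36 (rho 0.76, and 0.68 without the 2 farthest) and of -0.08 with KRT23, although KRT23 is a keratin of epithelia. PPP1R36 was also lower where the T cell sum (-0.73, and -0.67 without them) and CD5L (-0.76, and -0.69 without them) were higher, and MMP12 where the B cell and plasma cell sum was higher (-0.64, and -0.67 without them). MMP12 also had an r of 0.66 with the male germ cell sum (0.58 without them; SYCP3 made up 77.6% of it) and of -0.60 with the ciliated cell sum (-0.52 without them; TEKT2 made up 82.1%). Male germ cells are not present in these female livers, so an r of this size with a marker sum can arise without the cell type. CD3E made up 75.3% of the T cell sum, CD79A 83.4% of the B cell sum and APOE 98.6% of the lipid-associated macrophage sum, which therefore says little of its other genes (r = -0.13 with MMP12). Single markers varied: TREM2 had an r of 0.64 with KRT23 and of 0.09 with MMP12. The values share libraries and depth, and they do not show in which cells the 4 genes are expressed.

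**Figure D5:**
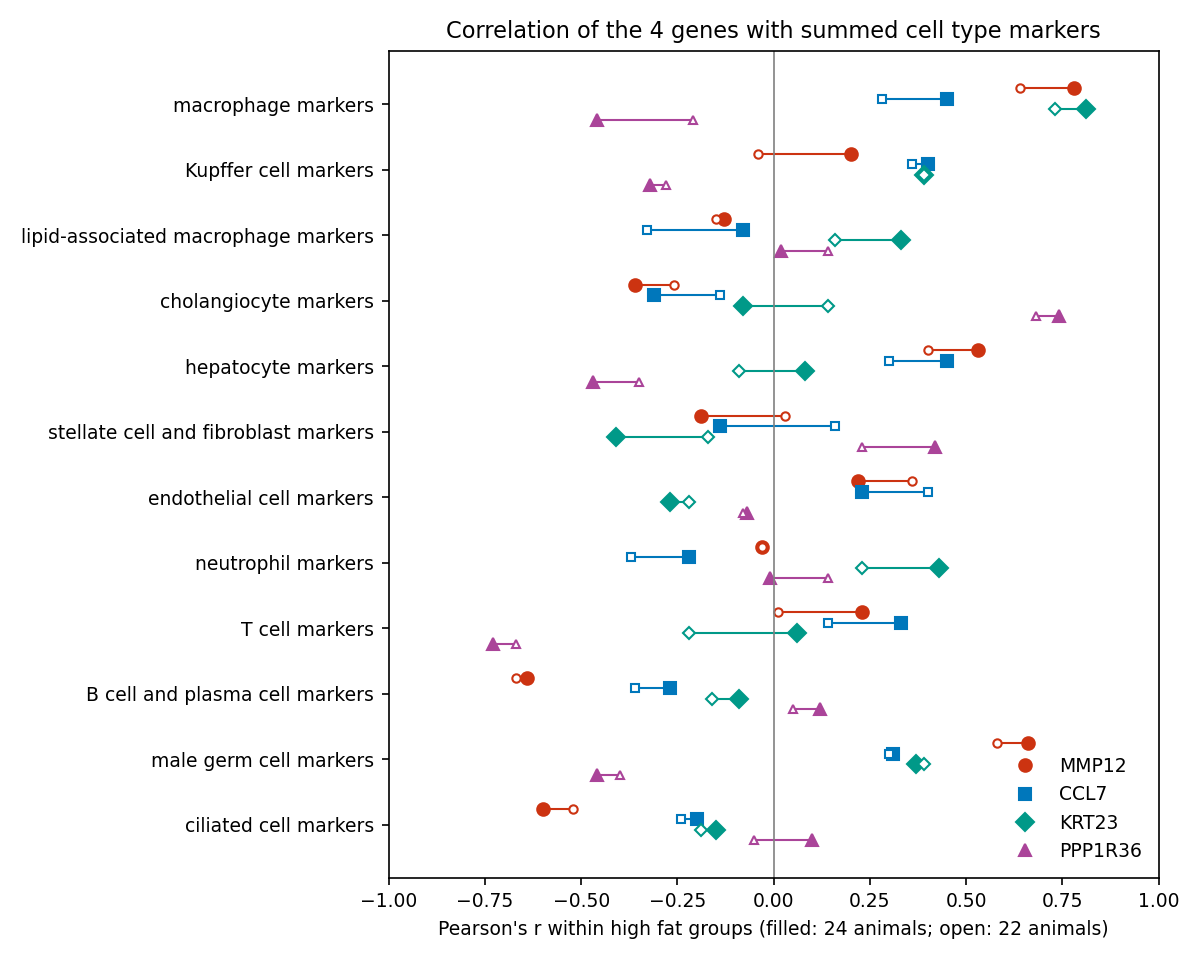
Pearson's r (horizontal axis) between MMP12, CCL7, KRT23 and PPP1R36 and the summed markers of 12 cell types (rows) among high fat livers, as deviations from group means of log2(CPM + 1); filled symbols use 24 animals and open symbols leave out the 2 animals farthest from the median of the gene. MMP12 (0.78) and KRT23 (0.81) lie far right for macrophage markers, PPP1R36 (0.74) for cholangiocyte markers and MMP12 (0.66) for male germ cell markers.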

How the data were processed

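Liver RNA of 44 animals was enriched for poly(A) mRNA and sequenced. Per the labels and the methods, the authors trimmed reads with Trimmomatic 0.38.0, aligned them with HISAT2 2.1.0 to the Ensembl guinea pig genome Cav.Por.3.0, quantified them with StringTie 2.1.1 and named genes by human orthologue symbols, so that 1 guinea pig gene can stand under several symbols. The deposited counts are whole reads per symbol and animal, and how StringTie output became counts is not given in the sources used here. The deposited log2 values were made by the authors with the variance-stabilizing transformation of DESeq2 and were used for an alternative only. Groups were taken from the diet labels, each animal being 1 sample.

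Counts were fitted in edgeR 4.0.16 (R 4.3.3) with TMM normalization, 6 group means and the quasi-likelihood F test, for symbols with a total of at least 200 counts, and p-values were adjusted over all symbols tested by Benjamini-Hochberg with a threshold of 0.05. The script was tested on simulated data. SE is the log2 fold change divided by the square root of F, and 95% intervals are normal approximations. CPM used effective library sizes, and log2 levels a pseudocount of 1 CPM. Exact permutation tests were two-sided. Alternatives were RLE normalization, no filter, a fit of the compared groups alone, limma 3.58.1 (voom with quality weights, and on the deposited log2 values), DESeq2 1.42.0 and leaving out each animal.

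Named genes are the 4 genes, the 2 ranked next, up to 3 symbols per direction, family list and comparison with the largest changes among those with an adjusted p under 0.05, the 5 symbols with the highest r to each gene, and defining cell type markers. Other genes were named after their values were seen: MRC1, SYCP3, CLEC7A, FABP5, S100A8, S100A9, MPO, CXCR2, CCL20, the sharers of counts and the leading genes of marker sums. The members and the lists were chosen with earlier results of these data known. The 18 lists also covered neutrophils, male germ cells and ciliated cells. Every count column belonged to 1 of the 44 animals (0 columns unused).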

Additional observations from a re-analysis of the deposited data

Results flagged for a closer look

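CCL7 in HFL/HFH animal 84 stood apart from its group: it had 14.2 CPM, and the next highest of the 6 animals had 5.51 CPM. The gap was 0.729 of the range of the group, above Dixon's 95% critical value of 0.625. It was 1 of 18 groups of values examined, and chance alone marks about 1 in 20.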

How the results depend on the processing

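No paired analysis was possible because no number is shared between groups: each animal had its own and ate 1 diet plan. Over the 4 genes and 5 comparisons, leaving out CCL7 and PPP1R36 in the switches, 96 of 106 refits that kept all animals and 257 of 280 that left out 1 animal kept the direction and the side of the threshold; the cause of the exceptions was not tested. MMP12 and KRT23 kept their calls in both switches. Between HFL/LFL and HFL/LFH, the log2 fold change of KRT23 was 1.93 from the compared groups alone and 2.29 with voom, neither past the threshold, and that of MMP12 was 1.16 by exact permutation, past it unadjusted. CCL7 turned to 0.20 (voom), 0.08 (deposited log2 values) and 0.01 (permutation), and PPP1R36 to 0.28 (voom); the groups compared alone gave neither a value, their totals being under 200 counts. In the difference between the switches CCL7 turned to 0.03 (voom) and PPP1R36 to 0.49 (voom) and 0.11 (deposited log2 values). Leaving out 1 animal, the HFL/LFL against HFL/LFH values ranged from 1.68 to 2.4 for KRT23, -0.73 to 3.74 for CCL7 (3.74 without HFL/LFH animal 58) and -0.82 to 0.16 for PPP1R36; HFL/HFL against HFL/HFH ranged from -0.59 to 0.04 for MMP12 and -0.18 to 0.06 for KRT23; the difference between the switches ranged from -0.95 to 3.52 for CCL7 and -0.55 to 0.43 for PPP1R36. CCL7 in HFL/LFH against HFL/HFH ranged from -10.26 (without animal 58) to -5.96. The number of symbols called between HFL/LFL and HFL/LFH was 17, but 0 from the compared groups alone, 40 with voom, 11 on the deposited log2 values and 80 with DESeq2; between HFL/HFL and HFL/HFH it was 1, and 0 from the groups alone and on the deposited values; for the difference between the switches it was 0, and 3 with DESeq2.

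Values of CCL7 and PPP1R36 in the low fat groups rest on few counts, and p-values measure the spread between animals fed and sampled within 1 study.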
